A study of Mus musculus with 12 samples.

Results

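Kupffer cells, the macrophages that live in the liver sinusoids, and monocytes, the blood cells that enter injured liver and can become macrophages there, were followed through 32 marker genes in RNA-seq of isolated mouse hepatocytes. The genes were chosen by name, with earlier results of these data known, and each matched 1 of the 35709 rows of the deposited table. All 32 passed the filter on low values, a normalized count of at least 1 in at least 3 libraries, which left 20244 genes for testing. They were read in groups by role: 5 resident Kupffer cell genes (Clec4f, Vsig4, Timd4, Cd5l and Marco), 3 monocyte genes (Ccr2, Ly6c2 and Itgam), 7 genes of the macrophage lineage, 4 of complement and haemoglobin scavenging, 5 of Fc and lipopolysaccharide receptors and their adaptors, 5 of the leukocyte surface and lysosome, and 3 genes of lipid-handling, scar-associated macrophages.

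Kupffer cells clear particles, dying cells and complement-coated material from portal blood, and molecules such as Clec4f, Vsig4 and Timd4 set them apart from newly arrived cells. Monocytes leave the bone marrow and enter injured tissue through the chemokine receptor Ccr2. Carbon tetrachloride (CCl4) is turned by hepatocyte cytochrome P450 into a radical that kills hepatocytes around the central vein, and in mice this injury is known for the entry of Ly6c-high monocytes, which later turn into restorative macrophages. Hepatocytes are not a known source of most of these transcripts, and a bulk sample cannot tell fewer cells of a type from less RNA per cell.

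The tested mice, Alb-R3, are labelled as lacking the fibroblast growth factor receptor gene Fgfr3 in hepatocytes, by a Cre recombinase under the albumin promoter, which is active in hepatocytes and not in myeloid cells. Controls were Alb-Cre mice, which carry the same recombinase. All were C57BL/6J males of 8 to 10 weeks, and hepatocytes were purified by Liberase perfusion, differential centrifugation and Percoll 48 h after CCl4 (dissolved in olive oil and dosed at 0.4 mg per g of body weight) or after oil alone. The groups were Alb-R3 CCl4, Alb-Cre CCl4, Alb-R3 oil and Alb-Cre oil, with 3 libraries in each, given below in the order of their replicate numbers. The labels do not say that each library came from a separate animal, so p-values measure the spread between these libraries, which may be partly technical.

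Library totals ran between 27215010 and 38828902 normalized counts. Fgfr3, the gene labelled as deleted, stood at 478, 372 and 382 in the Alb-R3 CCl4 libraries, against 951, 706 and 753 in the Alb-Cre CCl4 libraries. After oil it stood at 523, 650.5 and 1109 in Alb-R3, against 735, 888 and 988 in Alb-Cre. The library labelled Alb-R3 oil replicate 3 therefore held the highest Fgfr3 of all 12 and went against its label, and the exons deleted are not given in the sources used here. Alb-R3 CCl4 replicate 1 stood apart: mitochondrially encoded genes made up 32.3% of its normalized counts, against 6.22% to 12.8% in the other 11 libraries, and Alb, the albumin gene, 3.19%, against 4.54% to 8.58%. Counts over the 32 genes in comparisons that use it are given with and without it. Many single-gene values and most counts of other lists are given only with it.

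Of the 32 genes, 25 had an entry in RefSeq's promoter table for GRCm38.p6. PU.1, the lineage factor that Spi1 encodes, binds purine-rich DNA with a GAGGAA core, and this core, on either strand (GAGGAA or TTCCTC), was in the 250 bases before the start of 15 of the 25 members (60.0%), against 6986 of 27025 genes with an entry (25.9%). The longer form GAGGAAGT (or ACTTCCTC), which contains the core, was in front of C1qc and Ly6c2 only, 2 of 25 members (8.0%), against 755 of all genes (2.79%). A match is a stretch of letters and not a measured binding site. Shown 5′ to 3′, with the core in capitals, are the stretches before Marco, the resident gene with the largest response to CCl4 (chr1:120505025-120505274, minus strand), Itgam, a monocyte gene with a match on each strand (chr7:128062390-128062639, plus strand), C1qc, a complement gene with the longer form (chr4:136892915-136893164, minus strand), and Clec4f, a resident gene with no match in this window (chr6:83656117-83656366, minus strand).
Marco: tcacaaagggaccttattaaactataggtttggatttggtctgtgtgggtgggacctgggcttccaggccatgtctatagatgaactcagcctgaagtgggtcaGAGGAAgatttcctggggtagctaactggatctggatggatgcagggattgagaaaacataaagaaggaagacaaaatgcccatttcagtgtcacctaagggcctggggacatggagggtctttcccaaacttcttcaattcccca
Itgam: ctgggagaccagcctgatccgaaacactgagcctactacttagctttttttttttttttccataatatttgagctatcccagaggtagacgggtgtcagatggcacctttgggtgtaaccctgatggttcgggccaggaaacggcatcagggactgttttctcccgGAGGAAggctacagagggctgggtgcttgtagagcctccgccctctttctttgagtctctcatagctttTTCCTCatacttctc
C1qc: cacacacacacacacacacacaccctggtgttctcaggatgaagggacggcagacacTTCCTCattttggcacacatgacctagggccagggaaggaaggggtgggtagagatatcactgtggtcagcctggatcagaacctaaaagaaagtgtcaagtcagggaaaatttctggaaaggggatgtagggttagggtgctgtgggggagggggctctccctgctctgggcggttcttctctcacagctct
Clec4f: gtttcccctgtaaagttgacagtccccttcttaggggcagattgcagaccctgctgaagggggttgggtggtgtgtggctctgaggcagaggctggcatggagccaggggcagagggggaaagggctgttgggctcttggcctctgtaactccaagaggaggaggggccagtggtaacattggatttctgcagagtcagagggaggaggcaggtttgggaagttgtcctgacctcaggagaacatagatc

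The first comparison asked how the macrophage genes responded to CCl4 in mice labelled as lacking hepatocyte Fgfr3. In Alb-R3, 30 of 32 genes were higher after CCl4 than after oil and 0 were lower (limma, Benjamini-Hochberg adjusted p under 0.05), where 10.9% of all genes tested were called higher. Ly6c2 and Itgam did not pass. The median log2 difference of the 32 was 2.42, against 0.00 over all genes tested. The 3 libraries after CCl4 lay above the 3 after oil for 31 genes, all but Itgam, where 18.1% of all genes tested did so. Without Alb-R3 CCl4 replicate 1, 20 of 32 passed, with a median of 1.59 (9.84% of all genes were then called higher). Groups already apart cannot come to overlap when a library is left out, so the 31 genes stayed apart by construction. Itgam still overlapped, where 25.1% of all genes were then apart. Without Alb-R3 oil replicate 1, or without Alb-R3 oil replicate 2, 16 passed (7.06% and 7.66% of all genes), and 23 passed when the library labelled Alb-R3 oil replicate 3 was left out (8.57% of all genes).

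All 5 resident Kupffer cell genes were higher after CCl4 in Alb-R3. Marco (ENSMUSG00000026390, chromosome 1, 120474538 to 120505024), a scavenger receptor for bacteria and particles whose upstream stretch is shown above, stood at 1621, 116 and 147 normalized counts after CCl4, against 8.75, 13.6 and 11.8 after oil. Its log2 difference of 4.63 ± 0.84 (limma SE; adjusted p = 0.00244) was the largest of the 5. Every CCl4 library lay above every oil library, with replicate 1 far above the other CCl4 libraries. Vsig4 (ENSMUSG00000044206, chromosome X, 96247203 to 96293438), the receptor for complement C3b fragments, had 523, 139 and 186 after CCl4, against 33.9, 64.6 and 48.5 after oil, a log2 difference of 2.31 ± 0.42 (adjusted p = 0.00269). Cd5l (ENSMUSG00000015854, chromosome 3, 87357881 to 87371073), a secreted protein that binds lipids and IgM, had 3658, 473 and 679.6, against 188, 240.3 and 302, a difference of 2.14 ± 0.57 (adjusted p = 0.0201). For both genes the groups did not overlap, with every CCl4 library above every oil library.

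The remaining resident genes changed least. Clec4f (ENSMUSG00000014542, chromosome 6, 83644542 to 83656187), a lectin found in mice almost solely on Kupffer cells, had 1186, 442 and 458 normalized counts in Alb-R3 after CCl4, against 213, 223 and 336 after oil, a log2 difference of 1.30 ± 0.40 (limma SE; adjusted p = 0.0397). Timd4 (ENSMUSG00000055546, chromosome 11, 46810800 to 46844332), a phosphatidylserine receptor for dying cells, had 44.4, 34.4 and 33.7, against 10.9, 18.1 and 11.8, a difference of 1.42 ± 0.42 (adjusted p = 0.0354). Timd4 was the member in which the 3 CCl4 libraries lay closest together, and its highest library of all 12 was Alb-Cre oil replicate 1. Without Alb-R3 CCl4 replicate 1, Marco (3.42, adjusted p = 0.00156), Vsig4 (1.74, 0.00305) and Cd5l (1.24, 0.0161) still passed, while Clec4f (0.83, 0.12) and Timd4 (1.29, 0.0784) did not.

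**Figure D1:**
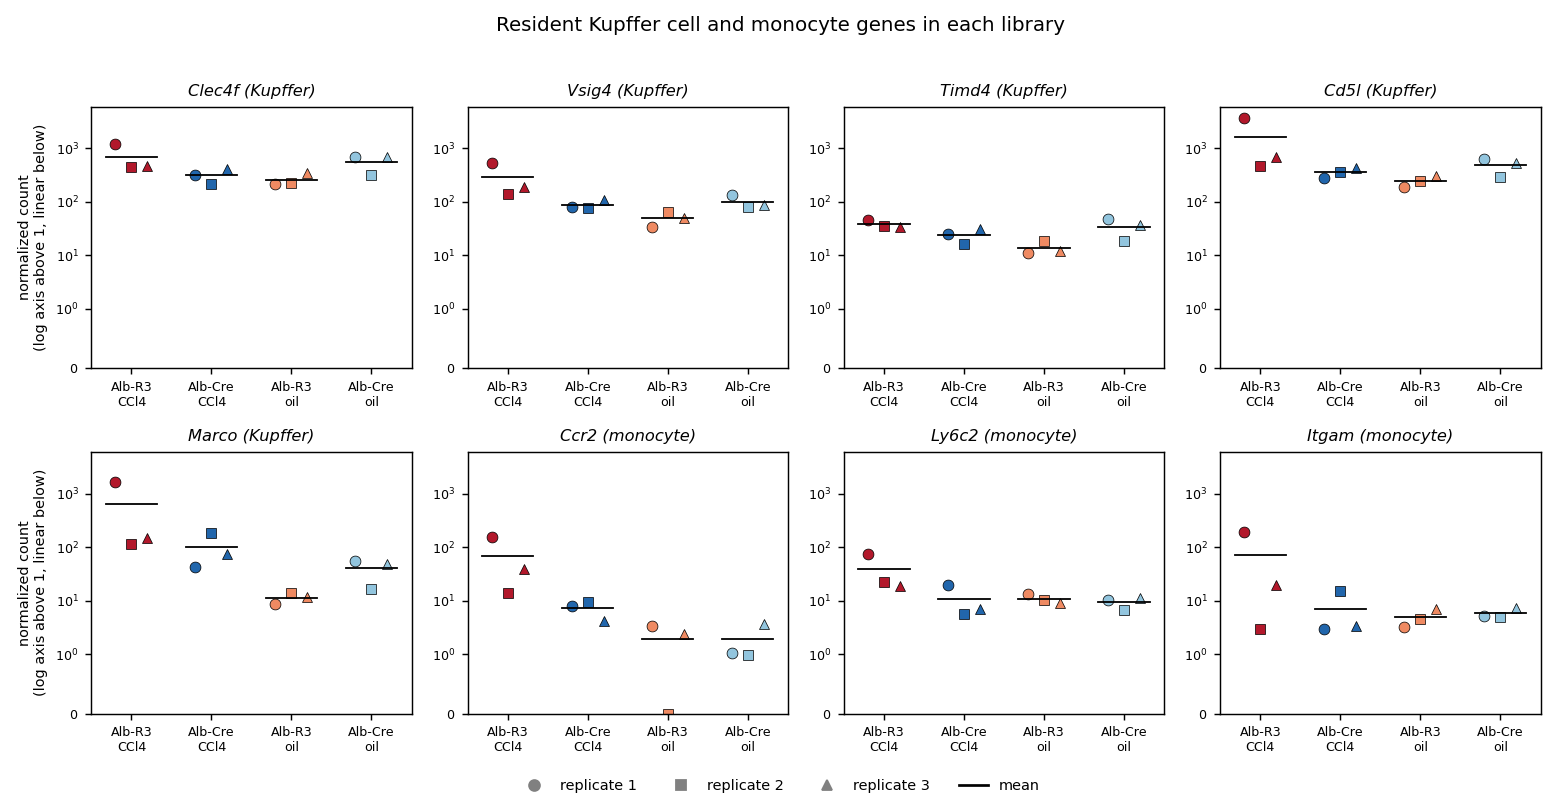
Normalized counts (log axis above 1, linear below) of the 5 resident Kupffer cell genes and 3 monocyte genes in each of the 12 libraries, by group, with symbols for replicate numbers and a bar at each group's mean. Alb-R3 CCl4 replicate 1 (circle) is the highest library in 7 of the 8 panels, all but Timd4, and in Alb-Cre the CCl4 and oil libraries overlap in 7 of 8, all but Ccr2.

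Of the 3 monocyte genes, Ccr2 rose. Ccr2 (ENSMUSG00000049103, chromosome 9, 124101950 to 124113557), the receptor for Ccl2, had 153, 14.0 and 39.6 normalized counts in Alb-R3 after CCl4, against 3.30, 0 and 2.37 after oil, a log2 difference of 4.22 ± 0.81 (limma SE; adjusted p = 0.00342). Without replicate 1 of the CCl4 group the difference was 3.34 (adjusted p = 0.0077). The oil libraries held at most 3.30 normalized counts, so Ccr2 was near the lower limit of what this depth shows there. Ly6c2 (ENSMUSG00000022584, chromosome 15, 75108158 to 75111970), a surface antigen of inflammatory monocytes, had 75.3, 22.3 and 19.0 after CCl4, against 13.2, 10.5 and 9.05 after oil, a difference of 1.48 ± 0.58 that did not pass (adjusted p = 0.0967). Its near-identical neighbour Ly6c1, which endothelial cells also express, can share reads with it, so its level is uncertain. Itgam (ENSMUSG00000030786, chromosome 7, 128062640 to 128118491), the alpha chain of the complement receptor Mac-1, had 192, 2.93 and 19.2, against 3.28, 4.55 and 7.10, a difference of 2.11 ± 1.05 that did not pass (adjusted p = 0.198). The value of Itgam in Alb-R3 CCl4 replicate 2 was below all 3 oil libraries, so the groups overlapped.

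All 7 genes of the macrophage lineage were higher after CCl4 in Alb-R3. Cd68 (ENSMUSG00000018774, chromosome 11, 69664213 to 69666153), a lysosomal glycoprotein of macrophages, had 953, 237 and 316 normalized counts after CCl4, against 52.5, 54.4 and 39.03 after oil, a log2 difference of 3.08 ± 0.42 (limma SE; adjusted p = 0.000306), the smallest adjusted p of the 32. Adgre1 (chromosome 17, 57358691 to 57483527), the F4/80 antigen of mouse macrophages, had 233, 63.7 and 116, against 13.1, 26.1 and 28.4, a difference of 2.43 ± 0.46 (adjusted p = 0.0031). Csf1r, the receptor for the macrophage growth factors CSF1 and IL-34, had 736, 211 and 366, against 86.5, 109 and 112, a difference of 1.91 ± 0.37 (adjusted p = 0.00395). In each of these genes the CCl4 libraries were all above the oil libraries and replicate 1 was the highest. Spi1, the gene of PU.1, differed by 2.30 ± 0.64 (adjusted p = 0.0247), Aif1, an actin-binding protein of activated macrophages, by 2.74 ± 0.70 (0.0163), and Lyz2, the lysozyme gene of myeloid cells, by 2.42 ± 0.64 (0.0209); Lyz2 can share reads with its paralog Lyz1. Mpeg1, a pore-forming protein of macrophages, had 1905, 938 and 1652 after CCl4, against 481.5, 513 and 850.3 after oil, a difference of 1.27 ± 0.38 (adjusted p = 0.0368). Without Alb-R3 CCl4 replicate 1, Spi1 (adjusted p = 0.054) and Mpeg1 (0.0977) no longer passed, and the other 5 did.

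The 3 chains of complement C1q, which tags dying cells for uptake and which macrophages make in most tissues, were higher together after CCl4 in Alb-R3. C1qb (chromosome 4, 136880129 to 136886187) had 1774, 309 and 389.5 normalized counts after CCl4, against 104, 98.6 and 135 after oil, a log2 difference of 2.41 ± 0.50 (limma SE; adjusted p = 0.00536). C1qa differed by 2.12 ± 0.55 (adjusted p = 0.0174) and C1qc by 2.34 ± 0.46 (0.00388), and all 3 chains passed without replicate 1 of the CCl4 group as well. Cd163 (chromosome 6, 124304656 to 124330527), the scavenger receptor for haptoglobin-bound haemoglobin, had 75.2, 42.5 and 53.7, against 20.2, 27.1 and 28.8, the smallest difference of the 30 genes called, 1.12 ± 0.34 (adjusted p = 0.0361). Without replicate 1 it was 0.90 and did not pass (adjusted p = 0.102).

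Among receptors that sense antibody and bacterial products, Cd14, the lipopolysaccharide co-receptor, changed most. It had 463, 113 and 115 normalized counts in Alb-R3 after CCl4, against 10.9, 6.80 and 11.8 after oil, a log2 difference of 4.11 ± 0.58 (limma SE; adjusted p = 0.000395), and passed without replicate 1 as well (3.43, adjusted p = 0.000504). Fcer1g, the signalling chain shared by Fc receptors, differed by 2.58 ± 0.73 (adjusted p = 0.0267), Fcgr1, the high-affinity IgG receptor, by 2.43 ± 0.73 (0.0352), Tyrobp, the adaptor DAP12, by 2.42 ± 0.71 (0.0317), and Fcgr3, a low-affinity IgG receptor with close relatives that can share its reads, by 2.20 ± 0.60 (0.0233). Of these, Fcer1g passed without replicate 1 (adjusted p = 0.0487), and Fcgr1 (0.106), Tyrobp (0.0671) and Fcgr3 (0.062) did not.

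The 5 genes of the leukocyte surface and lysosome passed in Alb-R3 with and without replicate 1 of the CCl4 group. Itgb2, the CD18 chain that pairs with Itgam, had 336, 30.8 and 82.5 normalized counts after CCl4, against 13.1, 6.80 and 5.91 after oil, a log2 difference of 3.40 ± 0.70 (limma SE; adjusted p = 0.00504). Ptprc (chromosome 1, 138062861 to 138175708), the pan-leukocyte phosphatase CD45, had 257, 33.7 and 59.3, against 15.3, 18.1 and 22.5, a difference of 2.07 ± 0.56 (adjusted p = 0.023). Laptm5, a lysosomal protein of blood cells, differed by 2.65 ± 0.63 (adjusted p = 0.0115), Ctss, the protease cathepsin S, by 2.61 ± 0.50 (0.00358), and Cybb, the catalytic subunit of the phagocyte NADPH oxidase, by 2.54 ± 0.48 (0.00327). Oil libraries of these 5 genes lay between 5.91 and 86.3 normalized counts, and none reached its CCl4 group.

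The 3 lipid- and scar-associated genes had the largest median difference of the role groups, 4.58 on the log2 scale, and uneven values. Gpnmb (ENSMUSG00000029816, chromosome 6, 49036546 to 49070929), a glycoprotein of lipid-laden macrophages, had 1702, 13.2 and 87.5 normalized counts in Alb-R3 after CCl4, against 9.85, 2.27 and 1.19 after oil, a log2 difference of 4.92 ± 1.36 (limma SE; adjusted p = 0.0249). Lgals3 (ENSMUSG00000050335, chromosome 14, 47367751 to 47386160), the lectin galectin-3, had 3822, 84.2 and 171.5, against 12.0, 12.5 and 22.5, a difference of 4.58 ± 1.11 (adjusted p = 0.0128). Trem2 (ENSMUSG00000023992, chromosome 17, 48346401 to 48354147), a lipid receptor that signals through Tyrobp, had 493, 21.2 and 20.8, against 7.66, 5.67 and 3.55, a difference of 3.28 ± 1.03 (adjusted p = 0.043). In all 3 genes replicate 1 held over 10 times the level of any other CCl4 library of its group, and the other CCl4 libraries still lay above all oil libraries. Without replicate 1, Lgals3 passed (2.92, adjusted p = 0.0142), and Gpnmb (3.05, 0.0581) and Trem2 (1.78, 0.104) did not.

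Under the reported fit and each of the 23 alternatives, the same 13 members passed as higher after CCl4 in Alb-R3. They were the resident genes Vsig4 and Marco, the monocyte gene Ccr2, Csf1r, Adgre1 and Cd68 of the lineage, C1qb and C1qc, Cd14, Itgb2, Ctss and Cybb, and Lgals3. The other 17 of the 30 lost the call under at least 1 alternative, none with a change of direction.

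**Figure D2:**
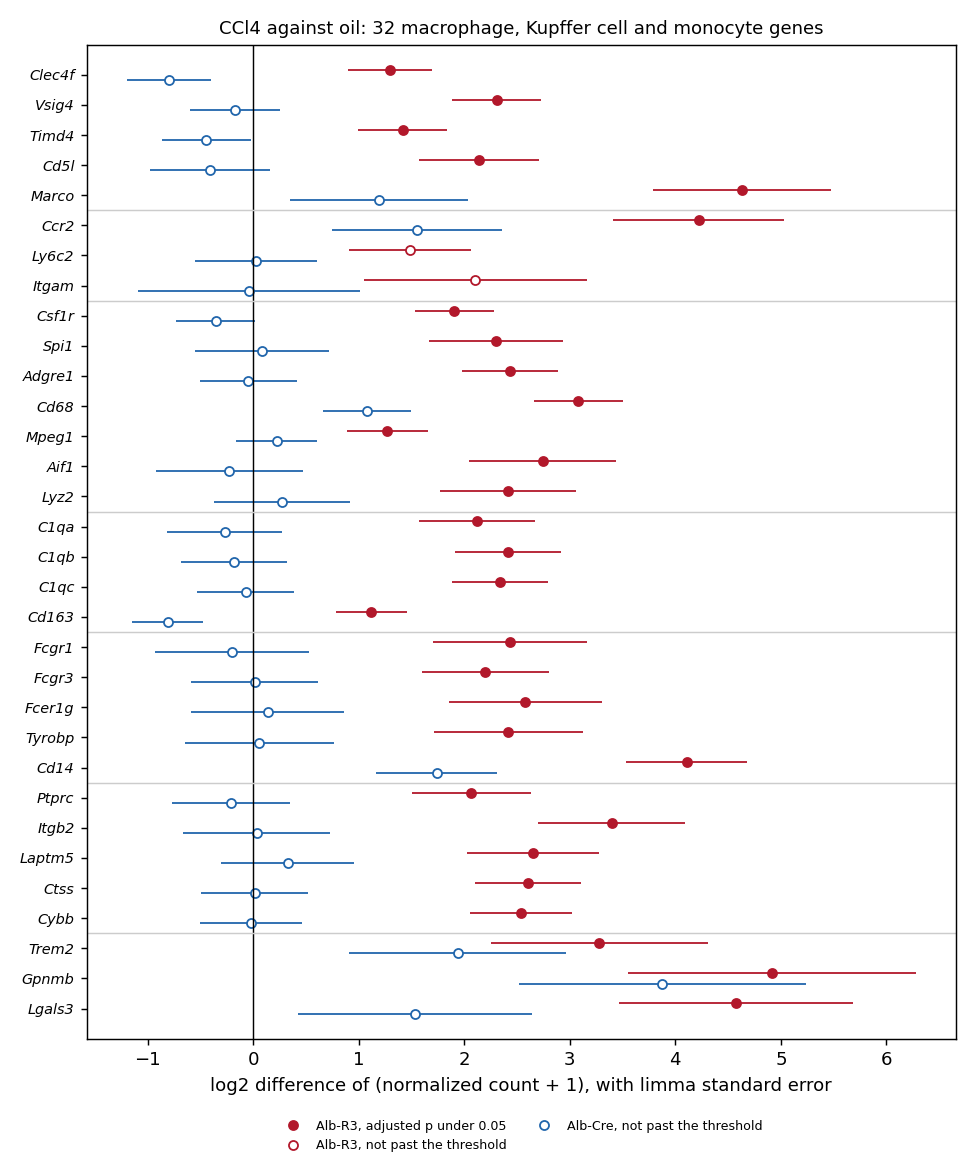
Log2 difference of (normalized count + 1) between CCl4 and oil, with limma's standard error, for the 32 genes grouped by role, in Alb-R3 (red) and Alb-Cre (blue); filled points passed an adjusted p of 0.05. In Alb-R3, 30 genes are filled and all 32 lie above 0, while in Alb-Cre 0 are filled and 17 lie above 0 (10 to 24 under the alternatives).

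In control mice the same comparison gave no call among the 32 genes. In Alb-Cre, 0 of 32 passed in either direction between CCl4 and oil (limma; 4.45% of all genes tested were called), and the median log2 difference was 0.01, against 0.02 over all genes. An unadjusted p under 0.05 was reached by 4 of the 32, against 3458 of all 20244 genes, and by 1 (without Alb-Cre CCl4 replicate 2) to 9 (without Alb-R3 CCl4 replicate 1) when a library was left out. The 4 were Cd14, Gpnmb and Cd68 with positive differences and Cd163 with a negative one (-0.81 ± 0.34, limma SE; adjusted p = 0.23). Of the 32 differences 17 were positive, a number that ran between 10 and 24 under the alternatives. Gpnmb had 10.8, 101 and 17.5 normalized counts after CCl4, against 1.05, 0 and 2.39 after oil, a difference of 3.88 ± 1.36 (limma SE; adjusted p = 0.15). Cd14 had 33.1, 67.5 and 55.7, against 23.1, 6.80 and 17.9, a difference of 1.74 ± 0.58 (adjusted p = 0.122), and Cd68 had 121.5, 149.8 and 108, against 77.7, 44.7 and 58.5, a difference of 1.08 ± 0.42 (adjusted p = 0.196). In these 3 genes all CCl4 libraries lay above all oil libraries. The spread is estimated over all 4 groups, and with Alb-R3 CCl4 replicate 1 left out all 3 genes passed (adjusted p = 0.0201, 0.0335 and 0.0256), and 7.22% of all genes were then called.

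Of the 5 resident Kupffer cell genes in Alb-Cre, 4 had a negative log2 difference and 0 passed; the difference of Vsig4 (-0.17 ± 0.42) turned to 0.027 with equal totals without mitochondrial genes and to 0.059 in FPKM. Clec4f had 312, 213 and 414 normalized counts after CCl4, against 674, 317 and 679 after oil, a log2 difference of -0.80 ± 0.40 (limma SE; adjusted p = 0.337). Cd5l had 279, 355 and 424, against 628, 294 and 532, Timd4 25.3, 16.0 and 30.8, against 47.2, 18.5 and 37.0, and Vsig4 80.7, 75.5 and 106, against 131, 80.7 and 87.1. Each of these groups overlapped, and Alb-Cre oil replicate 2 was the lowest Alb-Cre oil library in all 5 resident genes. Marco had 42.8, 182 and 73.1 after CCl4, against 55.6, 16.5 and 48.9 after oil, a difference of 1.19 ± 0.84 (adjusted p = 0.535), with Alb-Cre CCl4 replicate 2 above the other 5 libraries.

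Among the monocyte genes in Alb-Cre, Ccr2 had 7.86, 9.39 and 4.16 normalized counts after CCl4, against 1.05, 0.987 and 3.61 after oil. The CCl4 libraries all lay above the oil libraries, and the log2 difference of 1.55 ± 0.81 did not pass (limma SE; adjusted p = 0.364). Ly6c2 had 19.5, 5.72 and 7.03, against 10.2, 6.76 and 11.1, and Itgam had 2.99, 15.0 and 3.33, against 5.25, 4.89 and 7.16. Both overlapped between CCl4 and oil. Trem2 had 14.6, 30.9 and 16.6, against 12.6, 0.972 and 4.77, and was the other gene whose CCl4 libraries all lay above oil. Altogether 5 of 32 genes kept their Alb-Cre groups apart upward, Ccr2, Cd14, Cd68, Gpnmb and Trem2 (13.3% of all genes did), and 2 downward, Cd163 and Ptprc (10.4% of all genes did).

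The comparison of Alb-R3 with Alb-Cre after CCl4 asked whether the macrophage genes differed by genotype in injured liver. All 32 genes had a positive log2 difference, with a median of 1.65, against 0.00 over all genes, and 0 of 32 passed (limma, adjusted p under 0.05; 0.173% of all genes tested were called). At an unadjusted p under 0.05 there were 25, against 1573 of all 20244 genes. Alb-R3 lay wholly above Alb-Cre in 23 of 32 genes, where 6.16% of all genes tested did so. Without Alb-R3 CCl4 replicate 1 all 32 differences were still positive, the median was 0.79 and 0 passed (0.192% of all genes did). An unadjusted p under 0.05 was then reached by 13, against 1191 of all 19818 genes tested. Leaving out a library cannot make separate groups overlap, so the 23 genes stayed apart by construction. No other member came apart, where 12.1% of all genes were then apart.

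Cd68 had 953, 237 and 316 normalized counts in Alb-R3, against 121.5, 149.8 and 108 in Alb-Cre, after CCl4, a log2 difference of 1.72 ± 0.42 with the smallest adjusted p of the 32 in this comparison (limma SE; adjusted p = 0.211). Cd163 had 75.2, 42.5 and 53.7 in Alb-R3, against 22.7, 19.4 and 26.1 in Alb-Cre, a difference of 1.26 ± 0.34 (adjusted p = 0.287), and here replicate 1 was close to the others. Clec4f differed by 1.04 ± 0.40 (adjusted p = 0.525), Vsig4 by 1.45 ± 0.42 (0.357), Timd4 by 0.66 ± 0.42 (0.764), Cd5l by 1.60 ± 0.57 (0.483) and Marco by 1.85 ± 0.84 (0.627). Of the resident genes, Marco alone overlapped between the genotypes, through Alb-Cre CCl4 replicate 2. Ccr2 differed by 2.54 ± 0.81 (adjusted p = 0.408) with no overlap, Ly6c2 by 1.67 ± 0.58 (0.469) and Itgam by 1.93 ± 1.05 (0.709), the last 2 with overlap. The 9 overlapping genes were Marco, Ly6c2, Itgam, Lyz2, Fcer1g, Itgb2, Trem2, Gpnmb and Lgals3.

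**Figure D3:**
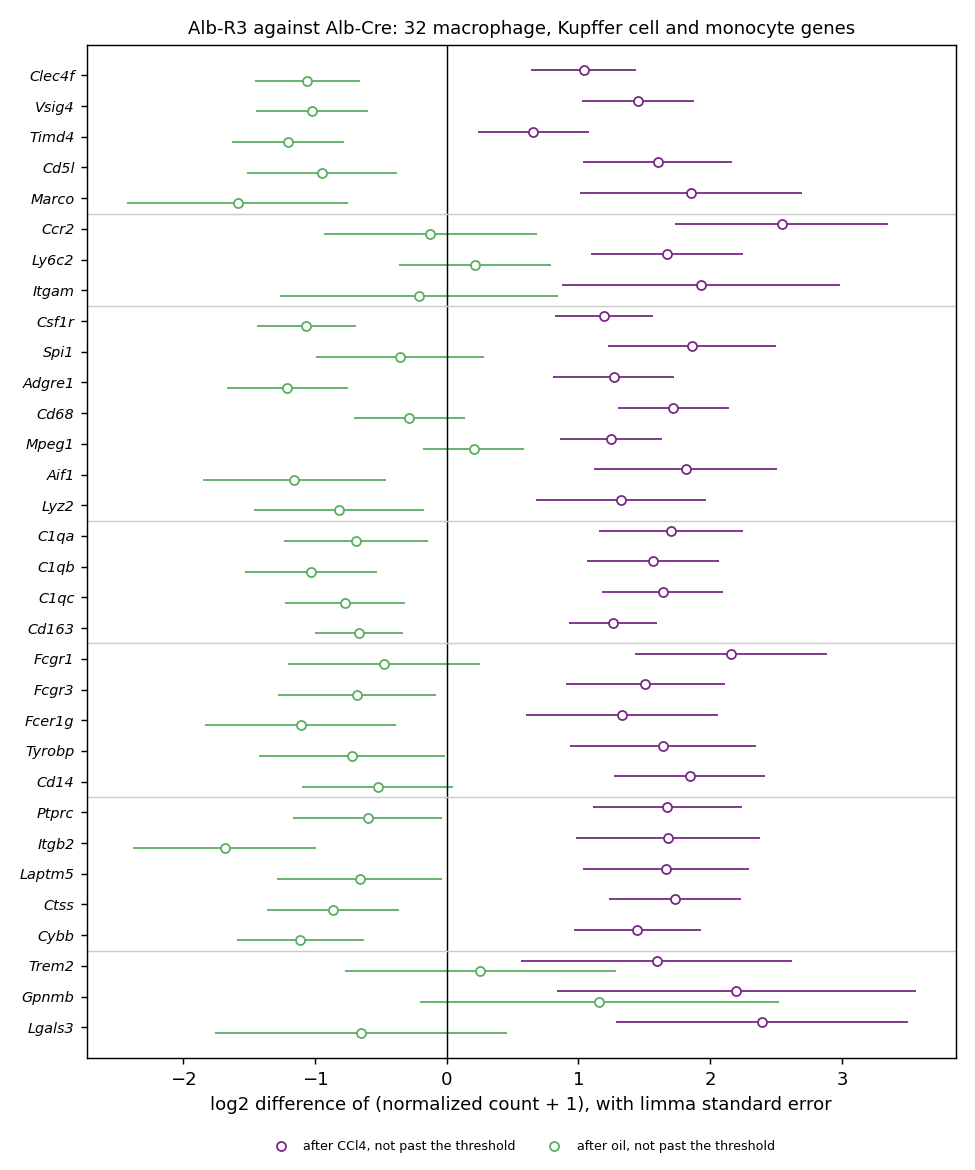
Log2 difference of (normalized count + 1) between Alb-R3 and Alb-Cre, with limma's standard error, for the 32 genes after CCl4 (purple) and after oil (green); open points did not pass an adjusted p of 0.05. After CCl4 all 32 lie above 0, after oil 4 do (Ly6c2, Mpeg1, Trem2 and Gpnmb), and 0 passed in either comparison.

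After oil most of the genes were lower in Alb-R3 without passing. In Alb-R3 against Alb-Cre, 28 of 32 log2 differences were negative, the median was -0.70, against 0.00 over all genes, 0 of 32 passed (limma; 0.207% of all genes tested were called) and 7 had an unadjusted p under 0.05, against 1314 of all 20244 genes. Leaving out 1 library made this 3 (Alb-R3 oil replicate 1), 4 (Alb-R3 oil replicate 2), 16 (Alb-R3 CCl4 replicate 1), or, of the Alb-Cre oil libraries, 0 (replicate 1), 10 (replicate 2) and 5 (replicate 3). Alb-R3 lay wholly below Alb-Cre in 11 of 32 genes, where 5.63% of all genes tested did so: Vsig4, Timd4, Marco, Csf1r, Adgre1, Lyz2, C1qb, Cd163, Ptprc, Itgb2 and Cybb. Timd4 had 10.9, 18.1 and 11.8 normalized counts in Alb-R3, against 47.2, 18.5 and 37.0 in Alb-Cre, a difference of -1.20 ± 0.42 (adjusted p = 0.481). Itgb2 had 13.1, 6.80 and 5.91, against 30.4, 22.4 and 33.4, a difference of -1.68 ± 0.70 (adjusted p = 0.667). In both genes every Alb-R3 library was below every Alb-Cre library. Leaving out the library labelled Alb-R3 oil replicate 3, the median was -0.89 and 5 had an unadjusted p under 0.05, and with limma's library weights 11 passed as lower, where 1.94% of all genes did. The monocyte genes stayed close to 0, at -0.13 ± 0.81 for Ccr2, 0.22 ± 0.58 for Ly6c2 and -0.21 ± 1.05 for Itgam.

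Markers of other liver cells moved with this difference. The summed level of 8 endothelial genes was 1527 to 1706 in Alb-R3 oil, against 2696 to 3608 in Alb-Cre oil, with Ptprb, an endothelial phosphatase, lower by the test (log2 -1.25 ± 0.22, adjusted p = 0.0415). That of 8 stellate cell genes was 489 to 648 in Alb-R3 oil, against 1168 to 1291 in Alb-Cre oil. The 5 resident Kupffer genes summed to 455, 559.9 and 709.6 there, against 1536, 726 and 1384. Both other sums were lower in all Alb-R3 oil libraries than in any Alb-Cre oil library, as was the Kupffer sum. Their part in the macrophage result was not tested.

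Whether CCl4 acted differently by genotype was tested as an interaction, the Alb-R3 difference minus the Alb-Cre difference. All 32 values were positive, with a median of 2.36, against -0.02 over all genes, and 0 passed (limma; 0.0% of all genes tested were called, 1516 of them at an unadjusted p under 0.05). Of the 32, 26 had an unadjusted p under 0.05. Vsig4 gave 2.47 ± 0.60 (adjusted p = 0.364), Csf1r 2.26 ± 0.53 (0.364), Adgre1 2.48 ± 0.65 (0.364) and Clec4f 2.10 ± 0.56 (0.364). Itgb2 gave 3.36 ± 0.98 (0.433) and Marco 3.44 ± 1.19 (0.513), while Gpnmb gave 1.04 ± 1.93 (0.965) and Trem2 1.34 ± 1.45 (0.933). Without Alb-R3 CCl4 replicate 1 the median was 1.64, 30 were positive, 0 passed (0.0151% of all genes did) and 21 had an unadjusted p under 0.05; Trem2 (-0.16) and Gpnmb (-0.82) turned negative, as did Gpnmb with library weights (-0.97) and a pseudocount of 0.1 (-0.01). Cd163 and Ptprc were the 2 genes whose CCl4 libraries all lay above oil in Alb-R3 and all below oil in Alb-Cre, where 0.262% of all genes did so. The 5 comparisons share libraries, so their values are not independent of each other.

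Alb-R3 CCl4 replicate 1 held the highest level of all 12 libraries in 31 of 32 genes, where 21.3% of all genes tested were highest in it. Its level was over 2 times the mean of replicates 2 and 3 in 29 of 32 genes, where 16.9% of all genes were, and the exceptions were Cd163, Mpeg1 and Timd4. The excess was uneven between roles. It was 33.8 times for Gpnmb, 29.9 for Lgals3 and 23.4 for Trem2, 17.3 for Itgam and 12.4 for Marco, against 2.64 for Clec4f, 2.55 for Csf1r, 1.56 for Cd163, 1.47 for Mpeg1 and 1.30 for Timd4, with a median of 5.62 over the 32. Endothelial genes stood at 0.389 to 1.33 times (median 0.588) and stellate cell genes at a median of 0.461 times the other libraries. S100a8 and S100a9, alarmins of neutrophils and monocytes, had 377, 7.33 and 2.40 and 504.5, 0.733 and 5.61 normalized counts in the 3 Alb-R3 CCl4 libraries. Other neutrophil genes were also highest in replicate 1: Csf3r, the G-CSF receptor, had 316, 14.4 and 20.04, the chemokine receptor Cxcr2 77.3, 17.8 and 11.1, the collagenase Mmp8 45.4, 0.733 and 4.01 and Retnlg 30.95, 1.47 and 0. Ly6g, a defining neutrophil gene in mice, had 0, 0.733 and 0, and at most 0.972 in any of the 12 libraries. The 7 neutrophil genes summed to 1351, 43.2 and 43.1 in Alb-R3 CCl4, against 21.6 to 70.1 in the other 9 libraries. Their part in the macrophage result was not tested.

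**Figure D4:**
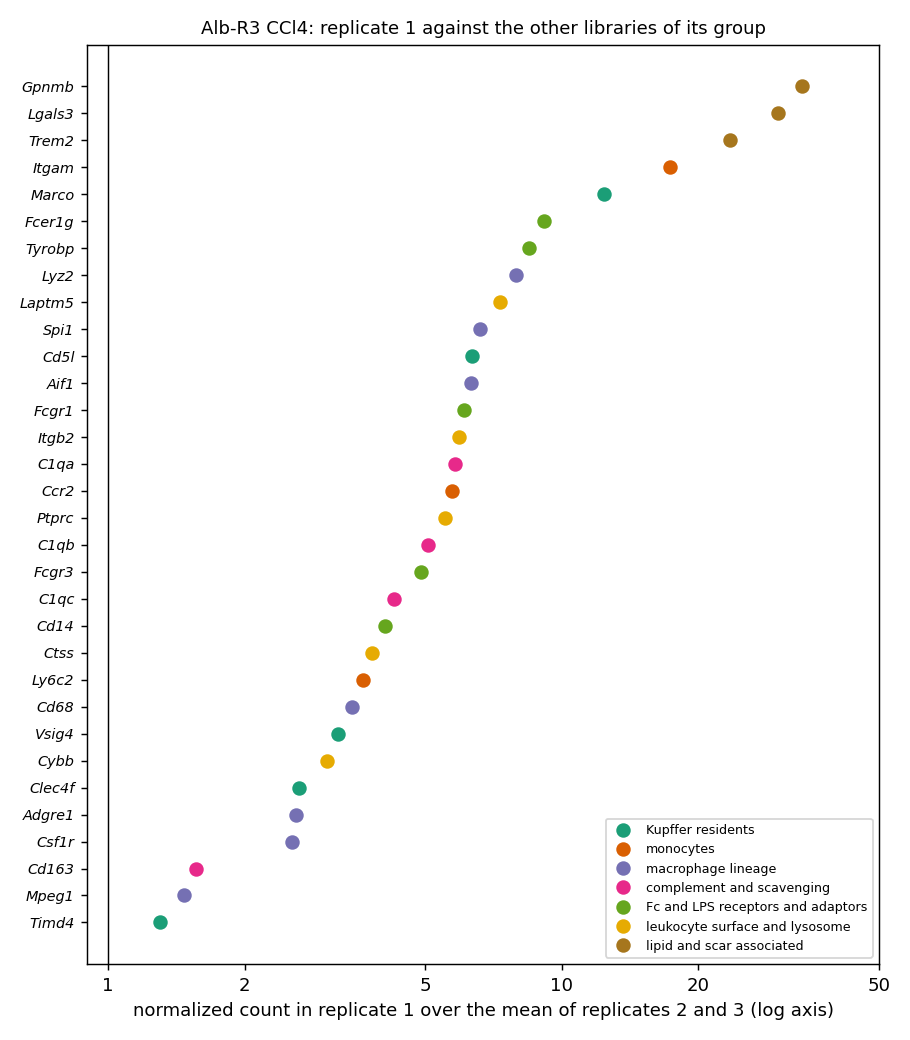
Normalized count in Alb-R3 CCl4 replicate 1 divided by the mean of replicates 2 and 3 of its group (log axis), for each of the 32 genes, coloured by role. Gpnmb, Lgals3 and Trem2 lead at 33.8, 29.9 and 23.4 times, and Cd163, Mpeg1 and Timd4 end at 1.56, 1.47 and 1.30 times.

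In Alb-Cre CCl4 replicate 2, 4 of 32 genes stood over 2 times the mean of replicates 1 and 3, where 6.95% of all genes did, and 13 of 32 stood below that mean. The 4 were Gpnmb, Itgam, Lgals3 and Marco. Gpnmb had 101 normalized counts there, against 10.8 and 17.5 in replicates 1 and 3, and Lgals3 245, against 37.0 and 40.7. Marco had 182, against 42.8 and 73.1, and Itgam 15.0, against 2.99 and 3.33. Clec4f (213, against 312 and 414) and Timd4 (16.0, against 25.3 and 30.8) were lowest in that library.

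Sums over the resident and over the monocyte genes were compared between libraries. They are not scaled by transcript length, so the percentages below compare libraries and do not give the abundance of one set against the other. The 5 resident genes summed to 7032, 1204 and 1504 normalized counts in Alb-R3 CCl4, 739.9, 841 and 1048 in Alb-Cre CCl4, 455, 559.9 and 709.6 in Alb-R3 oil, and 1536, 726 and 1384 in Alb-Cre oil. The 3 monocyte genes summed to 421, 39.3 and 77.9 in Alb-R3 CCl4, 30.3, 30.2 and 14.5 in Alb-Cre CCl4, 19.8, 15.0 and 18.5 in Alb-R3 oil, and 16.5, 12.6 and 21.8 in Alb-Cre oil. The monocyte sum was 5.98%, 3.26% and 5.18% of the resident sum in Alb-R3 CCl4, 4.10%, 3.59% and 1.38% in Alb-Cre CCl4, 4.34%, 2.68% and 2.61% in Alb-R3 oil, and 1.07%, 1.74% and 1.58% in Alb-Cre oil. The share was thus lowest in Alb-Cre oil, apart from Alb-Cre CCl4 replicate 3, and the CCl4 and oil libraries overlapped in both genotypes. All 32 genes together made up 0.0889%, 0.0168% and 0.0267% of normalized counts in Alb-R3 CCl4, against 0.00516% to 0.0133% in the other 9 libraries.

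**Figure D5:**
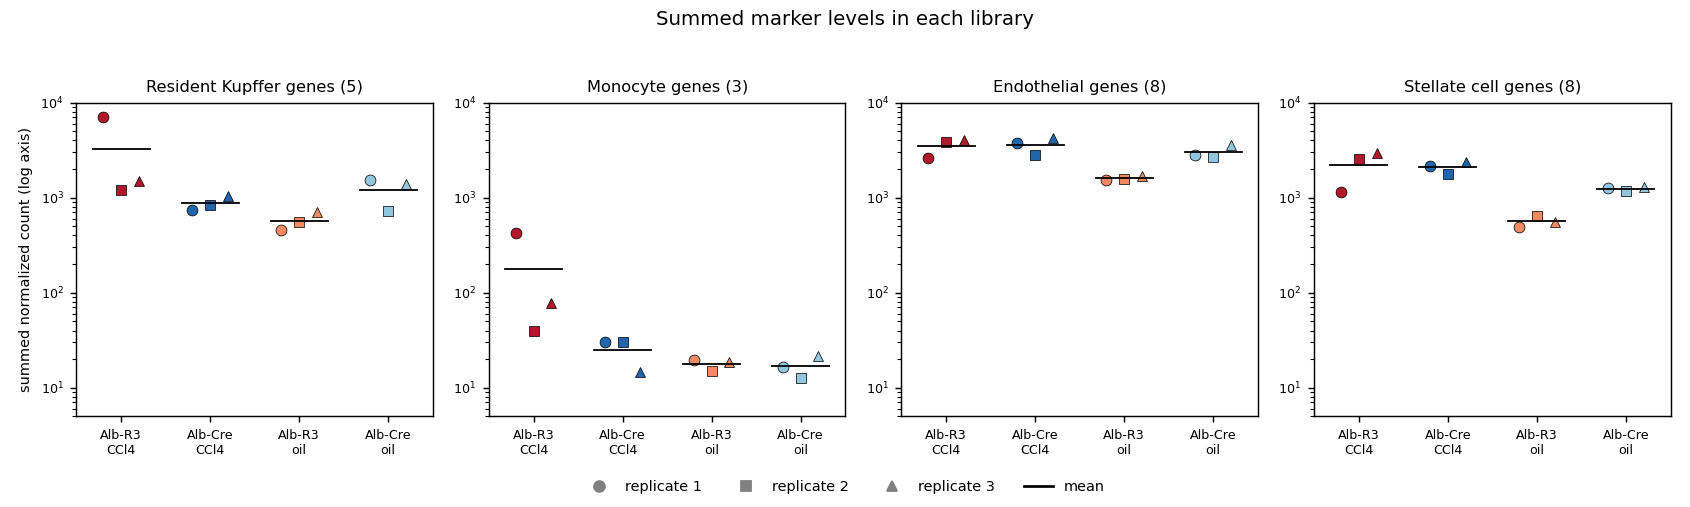
Summed normalized counts (log axis) of 5 resident Kupffer cell genes, 3 monocyte genes, 8 endothelial genes and 8 stellate cell genes in each library, by group, with symbols for replicate numbers and a bar at the mean. Alb-R3 CCl4 replicate 1 is highest in the Kupffer (7032) and monocyte (421) panels and lowest of its group in the endothelial (2630) and stellate (1136) panels.

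Marker genes of cells other than macrophages also changed in Alb-R3. Endothelial genes summed to 2630, 3895 and 3997 after CCl4, against 1527, 1565 and 1706 after oil, and 6 of 8 passed as higher, among them Lyve1 (log2 2.47 ± 0.34) and Pecam1 (1.88 ± 0.30). Stellate cell genes summed to 1136, 2526 and 2934 after CCl4, against 489, 648 and 549.9 after oil, and 7 of 8 passed, among them Col1a1 (4.26 ± 0.54) and Col3a1 (3.14 ± 0.42). In Alb-Cre, 0 of 8 endothelial and 4 of 8 stellate genes passed. The 5 resident Kupffer genes summed to 267%, 30.9% and 37.6% of the endothelial sum in Alb-R3 CCl4, against 29.8%, 35.8% and 41.6% in Alb-R3 oil. For this sum, replicates 2 and 3 lay within the oil range. Clec4f and Cd5l dominate the sum, so it does not show how each resident gene stood relative to endothelial genes. In Alb-Cre the resident sum was 19.8%, 29.8% and 24.6% of the endothelial sum after CCl4, against 54.5%, 26.9% and 38.4% after oil. The part of other cell types in the macrophage result was not tested. Among tested markers of other cells, 1 of 5 neutrophil, 2 of 6 T and NK cell, 1 of 4 dendritic cell and 2 of 5 cholangiocyte genes were higher in Alb-R3 after CCl4, and 0 in Alb-Cre. Of the 6 T and NK cell genes, Gzma and Klrb1c reached the filter only through the 3 Alb-R3 CCl4 libraries, at 3.66 normalized counts or less. Their tests in this comparison therefore carry no weight. The cholangiocyte gene Cldn4 and the neutrophil gene Mmp8 were at 0 in all oil libraries and reached the filter only through CCl4 libraries. Tests of these genes between CCl4 and oil carry no weight either. Without Alb-R3 CCl4 replicate 1, Gzma, Klrb1c and Mmp8 fell below the filter. The neutrophil and T and NK cell counts were then 0 of 4 each. Of genes that mark hepatocytes, 0 of 7 passed in either genotype, and of B cell genes 1 of 5 passed as lower in each, Ighm, the heavy chain of IgM (Alb-R3 -3.51 ± 0.46, adjusted p = 0.000249; Alb-Cre -2.99 ± 0.46, adjusted p = 0.00155).

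Further genes of macrophage biology were read from lists outside the 32. Of 12 phagocytic and pattern recognition receptors, 10 were higher after CCl4 in Alb-R3 and 0 in Alb-Cre, led by Msr1, a scavenger receptor for modified lipoproteins (3.05 ± 0.47, limma adjusted p = 0.000739), and Axl, a receptor for dying cells (2.29 ± 0.41, 0.00224). Of 8 other monocyte genes 5 were higher in Alb-R3 and 0 in Alb-Cre, led by the fractalkine receptor Cx3cr1 (3.78 ± 0.83, 0.00762) and the chitinase-like Chil3 (4.24 ± 1.12, 0.0201); without Alb-R3 CCl4 replicate 1, 1 passed. Of 10 other genes ascribed to Kupffer cells, 4 were higher and 2 lower in Alb-R3, and 0 passed in Alb-Cre. The higher included the adhesion molecule Cdh5 (1.47 ± 0.24), which endothelial cells also express, and the haem-degrading enzyme Hmox1 (1.40 ± 0.27). Cdh5 had 215, 299 and 330 normalized counts in the Alb-R3 CCl4 libraries, lowest in replicate 1, as the endothelial sum was. The lower were C6, a complement protein that hepatocytes also make (-2.06 ± 0.53), and the iron exporter Slc40a1 (-0.97 ± 0.31). Of 6 other scar macrophage genes 3 passed as higher in each genotype, led by Cd63. Cd63, a tetraspanin of late endosomes, had 1654, 595 and 934 normalized counts after CCl4 in Alb-R3, against 24.1, 12.5 and 21.8 after oil, and 279, 834 and 272 after CCl4 in Alb-Cre, against 31.5, 19.4 and 32.2 after oil, with no overlap in either genotype (adjusted p = 7.67e-06 and 0.000187).

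Signals that call and sustain macrophages were measured as well. Of 8 growth factor and recruitment genes, 4 were higher after CCl4 in Alb-R3 and 1 in Alb-Cre, Csf2rb, the shared chain of the GM-CSF receptor (Alb-R3 1.56 ± 0.25, limma adjusted p = 0.00107; Alb-Cre 1.19 ± 0.25, 0.0145). Ccl2, the ligand of Ccr2, had 438.5, 39.5 and 28.1 normalized counts after CCl4 in Alb-R3, against 1.09, 2.27 and 4.73 after oil (4.56 ± 0.83, adjusted p = 0.00241). In Alb-Cre it had 18.5, 14.9 and 15.8 after CCl4, against 1.05, 2.92 and 2.39 after oil (2.53 ± 0.83, adjusted p = 0.118). In both genotypes all CCl4 libraries were above all oil libraries for Ccl2. Of 9 tested cytokine and effector genes 3 were higher and 1 lower in Alb-R3 and 0 passed in Alb-Cre; the higher included Tgfb1 (1.79 ± 0.34), the fibrogenic cytokine, and the hepatocyte mitogen Hgf (2.88 ± 0.62), and the lower was Il18 (-0.80 ± 0.24). Of 8 macrophage transcription factors 3 were higher and 1 lower in Alb-R3, and 0 were higher and 1 lower in Alb-Cre. The higher were led by Zeb2 (1.82 ± 0.44) and Runx1 (2.84 ± 0.75). Without Alb-R3 CCl4 replicate 1, 1 was higher and 1 lower in Alb-R3. Between genotypes and in the interaction, Ptprb after oil was the only gene of these other lists to pass. These counts stand beside 10.9% of all genes called higher and 6.92% lower in Alb-R3, and 3.46% higher and 0.988% lower in Alb-Cre.

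Levels can be set between genes only per length, as FPKM (fragments scaled by transcript length and library total). In Alb-Cre oil the highest mean of the 32 was that of Clec4f, at 10.2 ± 3.73 FPKM (SD, n = 3), followed by Cd5l at 6.74 ± 2.33 and C1qb at 6.18 ± 1.94. These 3 genes kept that order within each of the 3 libraries, and their differences were not tested. In Alb-R3 oil Clec4f led at 4.53 ± 0.940 and Mpeg1 followed at 3.84 ± 1.05. In Alb-Cre CCl4 Lyz2 had the highest mean, 7.13 ± 2.57, with Clec4f at 6.86 ± 2.51 beside it. Clec4f was the higher of these in replicates 1 and 3, and Lyz2 in replicate 2 (9.90 against 4.31). In Alb-R3 CCl4 Lgals3 led at 46.6 ± 71.2, ahead of Lyz2 at 26.3 ± 29.1, with SDs that replicate 1 sets. Without replicate 1, C1qc led at 10.3 and 13.2 FPKM in replicates 2 and 3, followed by C1qb at 9.79 and 13.2 and Mpeg1 at 7.46 and 14.0, and Lgals3 stood at rank 14 with 3.48 and 7.54. The monocyte genes Ccr2 and Itgam were among the 4 lowest of the 32 in every group, at 0.575 ± 0.549 and 0.728 ± 1.02 FPKM in Alb-R3 CCl4, 0.065 ± 0.022 and 0.081 ± 0.073 in Alb-Cre CCl4, 0.014 ± 0.013 and 0.047 ± 0.016 in Alb-R3 oil, and 0.015 ± 0.012 and 0.058 ± 0.012 in Alb-Cre oil.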

How the data were processed

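Hepatocyte RNA-seq was measured in 12 samples, 3 in each of 4 groups, mapped to groups by their GEO labels. The deposited table holds 35709 Ensembl genes, 35574 with a symbol. Per the submitters' processing notes, kallisto 0.44.0, edgeR (no version given) and the build GRCm38.p6 were used, with no role stated for each. Per the file headers, each sample has a normalized count and an FPKM. The authors' normalized count is used here as a signal, since it behaved as an estimated count divided by 1 factor per sample: 69.8% to 74.6% of low values were whole multiples of 1 read's worth (tolerance 0.02), so no count test was run. Depth was 28015141 to 39607185 estimated reads. Medians of squared differences between replicates were 3.35 to 45.6 times counting variance in the 12 replicate pairs, so no pair agreed within counting noise and the spread between libraries sets the precision.

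The log2 of the normalized count plus 1 was fitted by limma 3.58.1 under R 4.3.3 with its trend option, as 1 model of the 12 samples having a coefficient per group (8 residual degrees of freedom). Tests covered the 20244 genes that reached 1 in at least 3 samples, and p-values were Benjamini-Hochberg adjusted over all of them, with a threshold of 0.05. The log2(value + 1) scale understates changes of low genes. The test was tried on simulated data. The authors' deposited FPKM were used for levels between genes and, with a pseudocount of 0.1, as an alternative. Members and lists were chosen with earlier results of these data known. All 32 members are named; of other lists, at most 2 genes of smallest p per direction and comparison among those called, and defining markers of a library that stands apart. The result of 1 gene that this rule would name is not reported here. Gene positions are GENCODE M21 on GRCm38, 1-based. Promoter sequences are RefSeq's (GRCm38.p6), taken as the 250 bases before the start. Csf1r and Cd14 lie on a chromosome whose sequence is not shown here.

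Alternatives were other filters (none, or 6 samples), pseudocounts of 0.1 and 5, quantile normalization, equal totals without mitochondrial genes, FPKM, no trend, library weights, only the samples compared, the replicate number as a block, and leaving out each library.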

Additional observations from a re-analysis of the deposited data

Results flagged for a closer look

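Cd163 and Ptprc were the 2 of 32 genes whose CCl4 libraries all lay above the oil libraries in Alb-R3 and all below them in Alb-Cre, a pattern held by 0.262% of all genes tested. Cd163 had 75.2, 42.5 and 53.7 normalized counts after CCl4 in Alb-R3, against 20.2, 27.1 and 28.8 after oil. In Alb-Cre it had 22.7, 19.4 and 26.1 after CCl4, against 42.6, 32.3 and 47.7 after oil. The interaction of genotype and CCl4 was 1.93 ± 0.48 on the log2 scale (limma SE) and did not pass (limma adjusted p = 0.364). Ptprc had 257, 33.7 and 59.3 after CCl4 in Alb-R3, against 15.3, 18.1 and 22.5 after oil. In Alb-Cre it had 26.3, 21.7 and 25.8 after CCl4, against 27.3, 27.2 and 31.0 after oil. Its interaction was 2.28 ± 0.80 and did not pass (limma adjusted p = 0.515). Without Alb-R3 CCl4 replicate 1 the values were 1.71 for Cd163 (adjusted p = 0.345) and 1.44 for Ptprc (adjusted p = 0.503).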

How the results depend on the processing

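The 30 genes called higher after CCl4 in Alb-R3 became 14 when only the samples compared were fitted, 20 under quantile normalization and 21 without the trend. They became 16 to 30 when 1 library was left out. The 16 were without Alb-R3 oil replicate 1 or replicate 2, where 7.06% and 7.66% of all genes were called higher. With the samples compared alone, fewer degrees of freedom remained. In Alb-Cre, 0 calls became 2 of 32 with library weights, where 13.4% of all genes were called, and 1 with only the samples compared. They became 0 to 3 when 1 library was left out (3 without Alb-R3 CCl4 replicate 1, where 7.22% of all genes were called). Between genotypes after oil, 0 became 11 lower with library weights, where 1.94% of all genes were called lower. Shares over all genes are not given for the other settings, so their counts cannot be set against a background. After CCl4 and in the interaction, 0 passed under every alternative run; the fit to the samples compared alone was not run for the interaction. The causes were not tested. For the 84 single-gene differences followed (all 32 genes in Alb-R3, and in the other comparisons the resident and monocyte genes, other genes given with a value and those called under any alternative), 1774 values kept direction and call, 103 lost the call, 20 gained it and 20 changed sign. Over all 32 genes, the sign changed under at least 1 alternative for 19 in Alb-Cre (at most 9 under 1 alternative), 4 between genotypes after oil, 2 in the interaction, and 0 in Alb-R3 and between genotypes after CCl4; 0 of these values were called.

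Sign changes among the 84 were as follows. In Alb-Cre, CCl4 against oil, Ly6c2 (0.03) was -0.16 under quantile normalization and -0.47 to 0.34 when 1 library was left out. Itgam (-0.04) was 0.037 with a pseudocount of 5, 0.12 with equal totals, 0.13 in FPKM and -0.69 to 0.31 when 1 library was left out. Vsig4 (-0.17) was 0.027 with equal totals, 0.059 in FPKM and -0.32 to 0.045 when 1 library was left out. Between genotypes after oil, Itgam (-0.21) was -0.46 to 0.0018, and Ccr2 (-0.13) was -0.54 to 0.52, when 1 library was left out, and Ccr2 was 0.35 with library weights. In the interaction, Gpnmb (1.04) was -0.013 with a pseudocount of 0.1, -0.97 with library weights and -0.82 to 2.63 when 1 library was left out, and Trem2 (1.34) was -0.16 to 2.09. Equal totals moved the median of all genes by 0.37 in Alb-R3 and 0.18 in Alb-Cre for CCl4 against oil, by 0.12 between genotypes after CCl4 and by 0.20 in the interaction, and FPKM by 0.16 in Alb-R3 and 0.13 in Alb-Cre.

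Same-numbered samples showed at most weak correlation of their deviations from group means (18 pairs, -0.186 to 0.196, 3 over 0.1). With 3 samples per group this cannot settle whether the numbers pair the samples, and the reported fit does not pair them. With the replicate number as a block, 28 of 32 passed in Alb-R3 and 0 in each other comparison. With 3 libraries per group, 1 of them apart in Alb-R3 CCl4, precision is low, and genes of a few normalized counts, such as Ccr2 after oil, are limited by depth.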
